A study of Mus musculus with 15 samples.

Results

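The little-studied mouse microRNA (miRNA) precursors mir-5119, mir-1983, mir-7688 and mir-1966, were followed in left ventricular (LV) tissue of wild-type (wt), AGAT-/- and homoarginine-supplemented AGAT-/- mice. The count table lists a 5p and a 3p row for each precursor, so they took 8 of its 1836 rows and 4 of its 918 precursors. Reads were found on 6 of the 8 rows, and 4 rows (mir-5119-3p, mir-1983-3p, mir-7688-5p and mir-1966-3p) exceeded 10 reads summed over the libraries of a comparison and were tested. These 4 rows were chosen by the comparison of AGAT-/- with wt mice in the same libraries, so their levels in these groups are a description. The values used for that choice were the log2 fold change and the false discovery rate (FDR, at most 0.05) of this comparison.

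The 15 libraries came from 15 mice, 5 in each of 3 groups. AGAT (arginine:glycine amidinotransferase, gene Gatm) forms homoarginine and the precursor of creatine. All mice were littermates from heterozygous breeding on the C57BL/6J background. The wt mice (mice 1 to 5) and the AGAT-/- mice (mice 6 to 10) are labelled as control for treatment, while the AGAT-/-hArg mice (mice 11 to 15) carried the same deletion and received homoarginine from osmotic mini pumps for 4 weeks. AGAT was deleted in the whole animal and not in the heart alone, and no age is given in the sources used here. Since Gatm gives no miRNA, the genotype labels could not be checked in these counts. The labels name sequencing lane 8 for all wt and AGAT-/- libraries and lane 2 for all AGAT-/-hArg libraries, so supplementation and lane cannot be told apart in any comparison of the AGAT-/-hArg mice.

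A miRNA is cut from a hairpin-shaped precursor by Drosha in the nucleus and Dicer in the cytoplasm. The hairpin has a 5p and a 3p arm, 1 of which is usually kept in the Argonaute complex while the other is degraded, and the seed near the 5′ end of the mature strand pairs with target mRNAs. Some entries of miRNA catalogues come from short introns (mirtrons), which bypass Drosha, and others overlap tRNA or snoRNA genes, whose fragments have a similar size. For the 4 precursors described here no established role in the heart is known well enough to be stated.

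The mature sequences that carry the results are printed 5′ to 3′ with the seed (bases 2 to 8) in capitals, from RefSeq on build GRCm38.p6. They show that no seed was shared within the set.
mir-5119-3p: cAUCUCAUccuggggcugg
mir-1983-3p: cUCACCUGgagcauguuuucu
mir-7688-5p: uAGCUGGGcaugaucugaugagc
mir-7688-3p: uCUGGCUUaugccuagcuuuc
mir-1966-3p: uUUCUGACucaacucucccuuag
The seeds of mir-5119-3p and mir-7688-5p occurred in no other mature miRNA of the RefSeq table. Mir-1983-3p shared its seed with mir-412-3p, which had 4 reads in all 15 libraries. Mir-1966-3p shared its seed with mir-7006-3p, with 19 reads in all, and with mir-12178-3p, and mir-7688-3p shared its seed with mir-7652-3p, with 4 reads. Apart from mir-7688-3p, the members thus held most of the reads found on their seeds in rows named as in RefSeq. RefSeq matched 698 of the 918 precursors, and the seeds of other rows were not compared. RefSeq names mir-5119 and mir-1983 without an arm, and the position of the mature sequence in the hairpin placed both on the 3′ side.

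The hairpins are printed with the mature sequence of the named row in capitals, since the 4 loci differ in kind.
mir-5119: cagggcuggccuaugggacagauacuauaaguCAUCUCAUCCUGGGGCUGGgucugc
mir-1983: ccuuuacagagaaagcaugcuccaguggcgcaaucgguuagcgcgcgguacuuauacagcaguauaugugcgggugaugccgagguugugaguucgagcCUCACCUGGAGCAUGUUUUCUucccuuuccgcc
mir-7688: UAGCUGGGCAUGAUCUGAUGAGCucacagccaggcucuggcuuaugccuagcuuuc
mir-1966: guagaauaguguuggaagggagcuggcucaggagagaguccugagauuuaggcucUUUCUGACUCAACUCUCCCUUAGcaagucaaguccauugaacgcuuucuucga
Mir-5119 (chr11:98262606-98262662, plus strand, 57 bases) lay in an intron of Cdk12, the gene of a cyclin-dependent kinase that acts on RNA polymerase II, on the same strand. Mir-7688 (chr10:93433107-93433162, plus strand, 56 bases) overlapped no annotated gene, and the nearest was Lta4h, 20249 bases away.

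Mir-1966 (chr8:105615466-105615573, plus strand, 108 bases) overlapped Ripor1 on the same strand, a gene whose product binds RhoA, and the GENCODE gene of Agrp on the opposite strand. Its mature 3p sequence (chr8:105615521-105615543) ended directly before a Ripor1 exon (chr8:105615544-105615597), and 30 bases of the hairpin lay in that exon. The last letters of the mature sequence, ag, are thus the end of the Ripor1 intron. Of 1738 mature loci in the RefSeq table, 163 (9.38%) ended directly before a protein-coding exon, so this position was uncommon but not rare.

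Mir-1983 (chr13:21896918-21897049, minus strand, 132 bases) was the longest of the 4 hairpins and held the whole 94-base tRNA gene n-TItat14 (chr13:21896938-21897031), an isoleucine tRNA by its name. It was the only 1 of 1005 RefSeq hairpins to overlap a tRNA gene. Of the mature mir-1983-3p, the 13 bases in capitals lay inside the tRNA gene and the remaining 8 bases beyond its end.
mir-1983-3p: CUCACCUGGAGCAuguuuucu
Whether fragments of this tRNA were counted in the mir-1983-3p row is not given in the sources used here. Each of the mature sequences was found in its own hairpin only, and no other hairpin of the RefSeq table shared 15 bases in a row with any of them. The predicted folding energy per base was -0.41 kcal/mol for mir-5119, -0.40 for mir-1983, -0.46 for mir-7688 and -0.34 for mir-1966, against a median of -0.41 over the 1005 hairpins. None of the 4 stood apart from other hairpins by this measure, and mir-1966 was the weakest.

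The libraries held between 365634 and 570492 reads, and 3 reads corresponded to between 5.00 and 8.35 CPM (counts scaled to a common library size after TMM normalization). Intervals of summed reads and of arm shares, and floors, cover counting error only, whereas those of log2 fold changes are meant to cover the spread between mice as well. For mir-1966-3p, whose mice spread less than counting error alone gives, the edgeR standard errors and intervals can be too narrow. Of the heart muscle markers, 7 of 13 rows had reads, with a summed level between 1728 and 1982.6 CPM in wt, 1855 and 2571 CPM in AGAT-/- and 1936 and 2319 CPM in AGAT-/-hArg mice (medians 1911, 1990 and 2240), and the 3p arms of mir-1a, mir-133a and mir-208a were at 0. Of these 7 rows, mir-499-5p was called in AGAT-/-hArg against wt mice, higher by 0.43 on the log2 scale (FDR = 0.0131, edgeR), and none against AGAT-/- mice. The 4 red cell rows summed to between 2313 and 3773 CPM in any mouse, all on mir-144-5p, with both mir-451a rows at 0. The white cell rows (3 of 6 with reads) summed to between 60.9 and 123 CPM in wt, 72.4 and 96.6 in AGAT-/- and 47.5 and 81.7 in AGAT-/-hArg mice, with mir-142a-5p, mir-223-3p and mir-150-5p at 0. The endothelial rows (mir-126a) lay between 6.52 and 27.3 CPM, and the liver rows (mir-122) held 5 reads in all. None of the brain and skeletal muscle rows looked for was listed in the count table. The part of these cell types in the results below was not tested, and in bulk tissue fewer cells of a type and less RNA per cell cannot be told apart.

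By the mean over 15 libraries, mir-1983-3p was the most abundant of the set at 233 CPM and ranked 92nd among the 1164 rows with reads. Mir-7688-5p followed at 146 CPM (rank 114) and mir-5119-3p at 103 CPM (rank 128), whereas mir-1966-3p, at 10.2 CPM, ranked 310th. The order differed between groups. In wt mice mir-1983-3p (365 ± 92.0 CPM) and mir-5119-3p (287 ± 233 CPM) were above mir-7688-5p (98.5 ± 39.2 CPM) and mir-1966-3p (5.55 ± 3.26 CPM; SD, n = 5). In AGAT-/- mice mir-7688-5p (190 ± 36.0 CPM) and mir-1983-3p (188 ± 53.9 CPM) did not differ beyond their spread, and mir-1966-3p (18.0 ± 3.77 CPM) and mir-5119-3p (10.4 ± 11.6 CPM) followed. In AGAT-/-hArg mice mir-7688-5p (150 ± 43.7 CPM) and mir-1983-3p (146 ± 28.1 CPM) were again alike within their spread, as were mir-5119-3p (11.9 ± 14.3 CPM) and mir-1966-3p (7.03 ± 3.08 CPM). These levels are reads per mature strand, and ligation and amplification can differ between sequences.

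**Figure D1:**
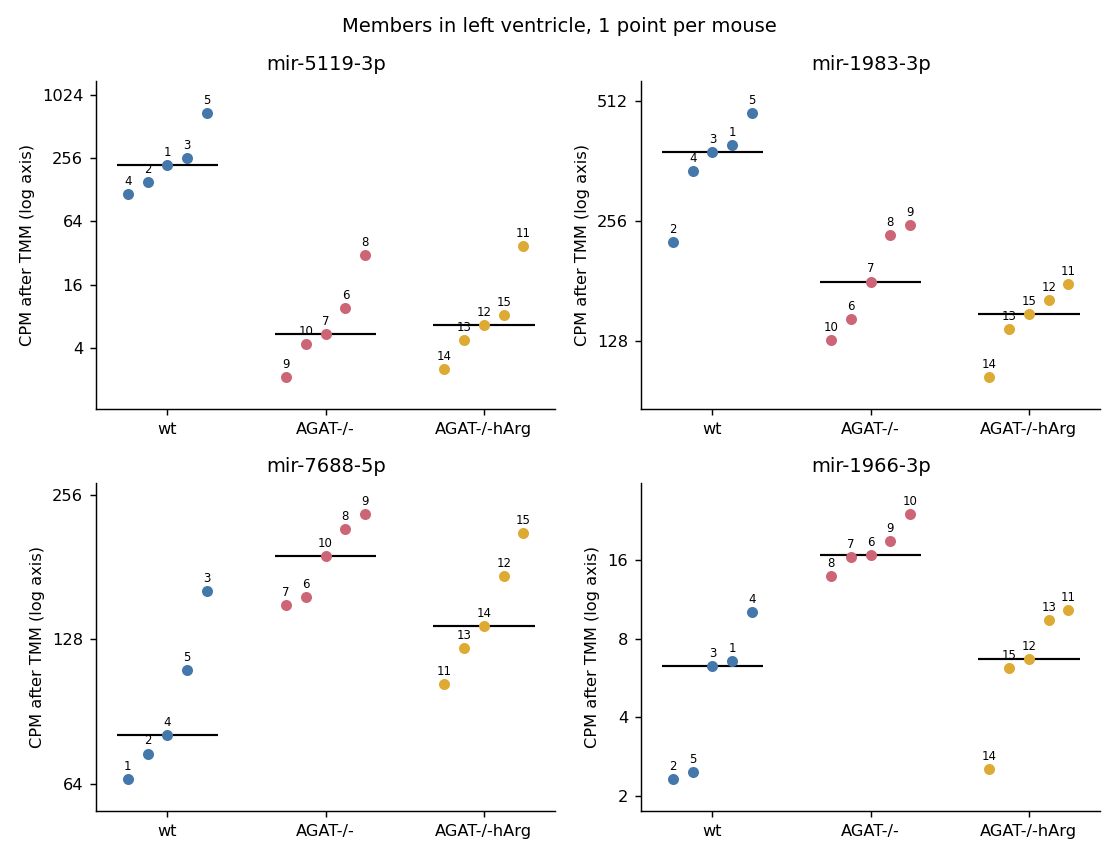
Level of each tested row in each mouse (CPM after TMM, log axis), 1 point per mouse with its number, ordered by level within a group, with the group median as a line. Mir-5119-3p lay between 116 and 692 CPM in wt mice and at no more than 37.2 CPM in the other 10 mice, while mir-1966-3p was highest in the 5 AGAT-/- mice.

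Mir-5119-3p, from the Cdk12 intron, was low in both AGAT-deficient groups. The wt mice 1 to 5 held 100, 65, 122, 46 and 282 reads, or 218, 150, 256, 116 and 692 CPM. The AGAT-/- mice 6 to 10 held 4, 3, 11, 1 and 2 reads (9.52, 5.46, 30.6, 2.10 and 4.35 CPM). The AGAT-/-hArg mice 11 to 15 held 18, 4, 2, 1 and 4 reads (37.2, 6.67, 4.73, 2.52 and 8.19 CPM). Every wt mouse lay above every mouse of the other groups, and in each group 1 mouse (5, 8 and 11) stood well above the rest.

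Against wt mice, mir-5119-3p was lower in AGAT-/-hArg mice by a log2 fold change of -4.55 (standard error 0.54, 95% interval -5.68 to -3.43, FDR = 8.11e-06, edgeR's quasi-likelihood test), or 23.5-fold. The wt mice of this comparison also served for the choice of the members. An exact permutation test of mean log2 CPM gave p = 0.00794 (two-sided, n = 5 per group), the smallest p that 5 against 5 mice allow. Only 2 of the 569 rows tested had a larger log2 fold change in either direction. The value rested in part on the mice that stood apart, being -3.94 without wt mouse 5 (FDR = 2.65e-07, edgeR) and -5.57 without AGAT-/-hArg mouse 11 (FDR = 1.10e-06, edgeR).

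Between AGAT-/-hArg and AGAT-/- mice, no difference in mir-5119-3p was detectable with 5 mice per group, at this depth and this spread between mice. The log2 fold change was 0.36 (standard error 0.66, 95% interval -1.01 to 1.72, FDR = 0.963, edgeR), and 14 of 25 pairs of mice were higher in the AGAT-/-hArg mouse. It changed sign to -0.69 when AGAT-/-hArg mouse 11 was left out (FDR = 0.896, edgeR), which brought the AGAT-/-hArg mean to 5.53 ± 2.46 CPM (SD, n = 4). Summed over the group, 29 reads in AGAT-/-hArg mice stood against 21 in AGAT-/- mice, a ratio of 1.31 with a counting interval of 0.72 to 2.41. For the choosing comparison of AGAT-/- with wt mice, the log2 fold change was -4.91 (standard error 0.56), with -4.24 without wt mouse 5 and -5.71 without AGAT-/- mouse 8.

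Mir-1983-3p, the sequence at the end of the isoleucine tRNA gene, was highest in wt mice. The wt mice held 182, 98, 182, 135 and 195 reads (397, 227, 382, 341 and 478 CPM). The AGAT-/- mice held 61, 99, 85, 119 and 59 reads (145, 180, 237, 250 and 128 CPM). The AGAT-/-hArg mice held 86, 97, 58, 41 and 73 reads (178, 162, 137, 103 and 150 CPM). Wt mouse 2 was the lowest wt mouse and lay below AGAT-/- mice 8 and 9, so wt and AGAT-/- mice overlapped, whereas all AGAT-/-hArg mice lay below all wt mice.

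In AGAT-/-hArg against wt mice, mir-1983-3p was lower by a log2 fold change of -1.33 (standard error 0.18, 95% interval -1.70 to -0.95, FDR = 4.91e-05, edgeR), or 2.51-fold. The exact permutation test again gave its smallest p of 0.00794 (two-sided, n = 5 per group), and 30 of the 569 rows had a larger log2 fold change in either direction. Here too, the wt mice had served for the choice of the row. Against AGAT-/- mice the log2 fold change was -0.35 (standard error 0.18, 95% interval -0.73 to 0.04, FDR = 0.706, edgeR), and the groups overlapped, with 7 of 25 pairs higher in the AGAT-/-hArg mouse. A difference was therefore not detectable with 5 mice per group. In the choosing comparison of AGAT-/- with wt mice the value was -0.98 on the log2 scale (standard error 0.19).

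Mir-7688-5p, from the intergenic locus near Lta4h, was highest on average in AGAT-/- mice, with all 3 groups overlapping. The wt mice held 30, 32, 77, 32 and 45 reads (65.4, 74.0, 162, 80.9 and 110 CPM). The AGAT-/- mice held 66, 83, 78, 111 and 88 reads (157, 151, 217, 233 and 191 CPM). The AGAT-/-hArg mice held 50, 104, 52, 54 and 104 reads (103, 173, 123, 136 and 213 CPM). Wt mouse 3 lay above AGAT-/- mice 6 and 7, and the AGAT-/-hArg mice lay within the range of the other groups.

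Mir-7688-5p passed the FDR in neither comparison of the AGAT-/-hArg mice. Against wt mice the log2 fold change was 0.58 (standard error 0.23, 95% interval 0.10 to 1.07, FDR = 0.261, edgeR; exact permutation test, two-sided, p = 0.0714, n = 5 per group), and 21 of 25 pairs were higher in the AGAT-/-hArg mouse. The call depended on wt mouse 3, without which the log2 fold change was 0.86 (FDR = 0.0396, edgeR). It also depended on the filter, with 0.61 (FDR = 0.0278, edgeR) where at least 1 read was asked for. The wt mice had served for the choice of this row as well. Against AGAT-/- mice the log2 fold change was -0.33 (standard error 0.18, 95% interval -0.70 to 0.05, FDR = 0.730, edgeR; exact permutation test, two-sided, p = 0.143, n = 5 per group). The choosing comparison had a log2 fold change of 0.92 (standard error 0.22), and 23 of its 25 pairs were higher in the AGAT-/- mouse.

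Mir-1966-3p, the strand that ends at the Ripor1 splice acceptor, was scarce throughout. The wt mice held 3, 1, 3, 4 and 1 reads (6.54, 2.31, 6.30, 10.1 and 2.45 CPM). The AGAT-/- mice held 7, 9, 5, 9 and 11 reads (16.7, 16.4, 13.9, 18.9 and 23.9 CPM). The AGAT-/-hArg mice held 5, 4, 4, 1 and 3 reads (10.3, 6.67, 9.46, 2.52 and 6.15 CPM). All AGAT-/- mice lay above all other mice, while wt and AGAT-/-hArg mice overlapped and several of them were at or below 3 reads.

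Between AGAT-/-hArg and AGAT-/- mice, the log2 fold change of mir-1966-3p was -1.31 (standard error 0.37, unadjusted 95% interval -2.09 to -0.53), which did not pass the FDR over all rows (FDR = 0.146, edgeR). Over the alternatives that could test it, the FDR lay between 0.0987 and 0.492. The highest came from DESeq2, where the standard error was 0.53. The fitted edgeR dispersion of this row was near its floor (0.0010), so its interval can be too narrow. The groups did not overlap, and the exact permutation test of mean log2 CPM, which was not adjusted over rows, gave p = 0.00794 (two-sided, n = 5 per group), the smallest it allows. The row had been selected on its high level in these same AGAT-/- mice. In summed reads, 17 stood against 41, a ratio of 0.39 with a counting interval of 0.21 to 0.71.

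In AGAT-/-hArg against wt mice, the log2 fold change of mir-1966-3p was 0.33 (standard error 0.50, 95% interval -0.71 to 1.37, FDR = 0.886, edgeR; exact permutation test, two-sided, p = 0.460, n = 5 per group). The summed reads were 17 and 12, a ratio of 1.29 with a counting interval of 0.58 to 2.95, so a difference was not detectable at this depth. The choosing comparison of AGAT-/- with wt mice stood at 1.64 on the log2 scale (standard error 0.40, and 0.58 in DESeq2). In DESeq2 the standard error of AGAT-/-hArg against wt mice was 0.71. The summed reads of the choosing comparison were 41 and 12.

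**Figure D2:**
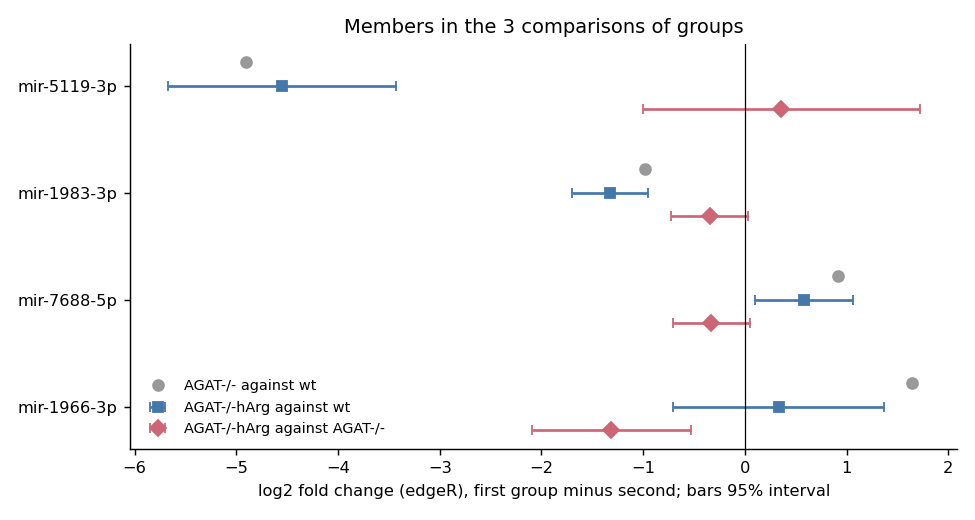
Log2 fold changes (edgeR) of the 4 tested rows in the 3 comparisons of groups, with 95% intervals for the comparisons of AGAT-/-hArg mice; the comparison that chose the rows (grey circles) is drawn without an interval. For mir-5119-3p and mir-1983-3p the intervals against wt mice lay below 0, at -5.68 to -3.43 and -1.70 to -0.95, and those against AGAT-/- mice crossed 0.

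Set against all rows, AGAT-/-hArg against wt mice gave 17 calls among 569 rows at an FDR of at most 0.05 (2.99%), 8 of them lower in AGAT-/-hArg mice (1.41%). Of the 4 members tested, 2 were called, both lower. In AGAT-/-hArg against AGAT-/- mice, 4 of 580 rows were called (0.69%) and none of the members, while 43 rows and, among the members, mir-1966-3p had an unadjusted p below 0.05 in edgeR. The groups did not overlap in 18 rows (3.16%) against wt mice, among them mir-5119-3p and mir-1983-3p, and in 14 rows (2.41%) against AGAT-/- mice, among them mir-1966-3p. In the choosing comparison of AGAT-/- with wt mice, 12 of 562 rows passed (2.14%) and 19 did not overlap (3.38%), from which nothing is read about the members. Both comparisons of the AGAT-/-hArg mice share a control group with the one that chose the rows.

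**Figure D3:**
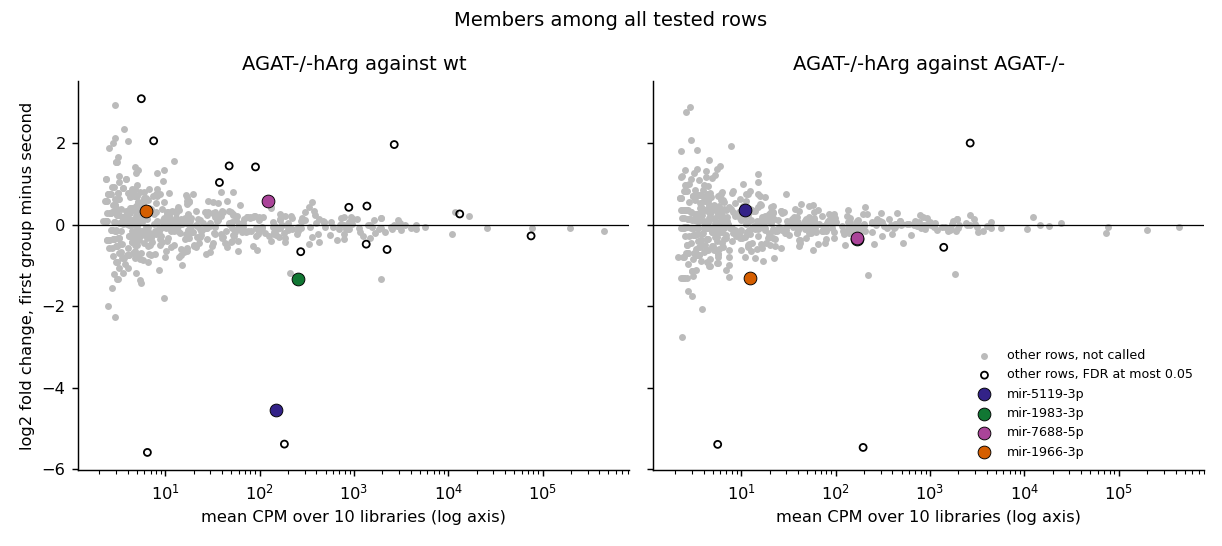
Log2 fold change (edgeR, AGAT-/-hArg minus the other group) against mean level (CPM over 10 libraries, log axis) for all tested rows, with rows at an FDR of at most 0.05 as open circles and the members in colour. Against wt mice mir-5119-3p lies at -4.55 and mir-1983-3p at -1.33, and 2 and 30 of 569 rows had a larger change in either direction. Against AGAT-/- mice mir-1983-3p (-0.35) lies under the symbol of mir-7688-5p (-0.33).

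Among the rows called in the choosing comparison, the members that were higher in AGAT-/- mice stood nearest to its threshold. Ranked by FDR and given here by their log2 fold changes, the last rows inside it were mir-7688-5p (log2 fold change 0.92) and mir-1966-3p (1.64). The first rows outside were mir-125b-2-3p (0.28), mir-883a-3p (4.18) and mir-499-5p (0.36), a miRNA of heart muscle.

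Nearly all reads of each precursor came from 1 arm. Mir-5119 had 665 reads on the 3p row and 0 on the 5p row, which allows a 5p share of up to 0.451% by a floor of 3 reads and 0.553% by the exact 95% limit. Mir-1983 had 1570 and 0 reads, which allows up to 0.191% and 0.235%. For mir-7688, 1006 reads lay on the 5p row and 3 on the 3p row, a 3p share of 0.297% (exact Clopper-Pearson 95% interval 0.0614% to 0.866%), with 1 read each in mice 5, 7 and 13. For mir-1966, 70 reads lay on the 3p row and 1, in mouse 13, on the 5p row, a 5p share of 1.41% (exact 95% interval 0.0357% to 7.60%). In the counted reads the dominant arm was thus the 3p arm for 3 precursors and the 5p arm for mir-7688. For mir-5119-5p, mir-1983-5p and mir-1966-5p the RefSeq table used here holds no mature sequence, and arms known to be abundant in heart, such as those of mir-1a and mir-133a above, are listed at 0, so a row at 0 does not show that the arm was absent from the tissue.

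The arm share of mir-7688 could hardly vary, since its minor arm held 1 read in each group. The mean 5p share was 99.6% in AGAT-/-hArg, 99.8% in AGAT-/- and 99.6% in wt mice, and the exact permutation test gave p = 1.0 in both comparisons (two-sided, n = 5 per group, Benjamini-Hochberg adjusted p = 1.0), a value with little room to change, as 4 of 5 mice in each group had no 3p read. With 1 read added to each arm, the share was higher by 1.04 percentage points against wt mice (exact permutation test, two-sided, p = 0.183, n = 5 per group) and lower by 0.44 against AGAT-/- mice (p = 0.500, same exact test), and nothing is read from these shares about supplementation. The other precursors could not be tested for it, having either no read on the minor arm or too few reads per library.

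The spread between mice was wide for mir-5119-3p, and 1 mouse in each group held a large part of it. Its coefficient of variation (SD over mean of the CPM) in wt mice was 81.4%, the third highest among the 231 rows with a mean above 10 reads there, whose median was 16.7%. Counting error alone would give 9.02% at its read number. Without wt mouse 5, the highest of its group, the coefficient was 34.3%, rank 35 of 229 rows. This was still above their median of 16.2% and the 11.0% from counting error. In the AGAT-/- and AGAT-/-hArg mice, where its mean was under 10 reads, the coefficient was 112% and 121%, against 48.8% and 41.5% from counting error. Without AGAT-/- mouse 8 and AGAT-/-hArg mouse 11 these values were 58.0% and 44.4%, below the 63.2% and 60.3% from counting error. The edgeR dispersion of mir-5119-3p lay at percentile 97.5 of all rows against wt and 99.8 against AGAT-/- mice.

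The other rows had lower coefficients with all mice included. Mir-7688-5p had coefficients of 39.8% in wt, 18.9% in AGAT-/- and 29.1% in AGAT-/-hArg mice, and mir-1983-3p of 25.2%, 28.7% and 19.3%, where the medians of rows with a mean above 10 reads were 16.7%, 16.0% and 16.0%. For mir-7688-5p this placed it 22nd of 231 rows in wt mice. For mir-1966-3p the values of 58.8%, 20.98% and 43.9% were below the 64.5%, 34.9% and 54.2% that counting error alone gives, so that no spread between mice beyond the counting of its few reads was seen.

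**Figure D4:**
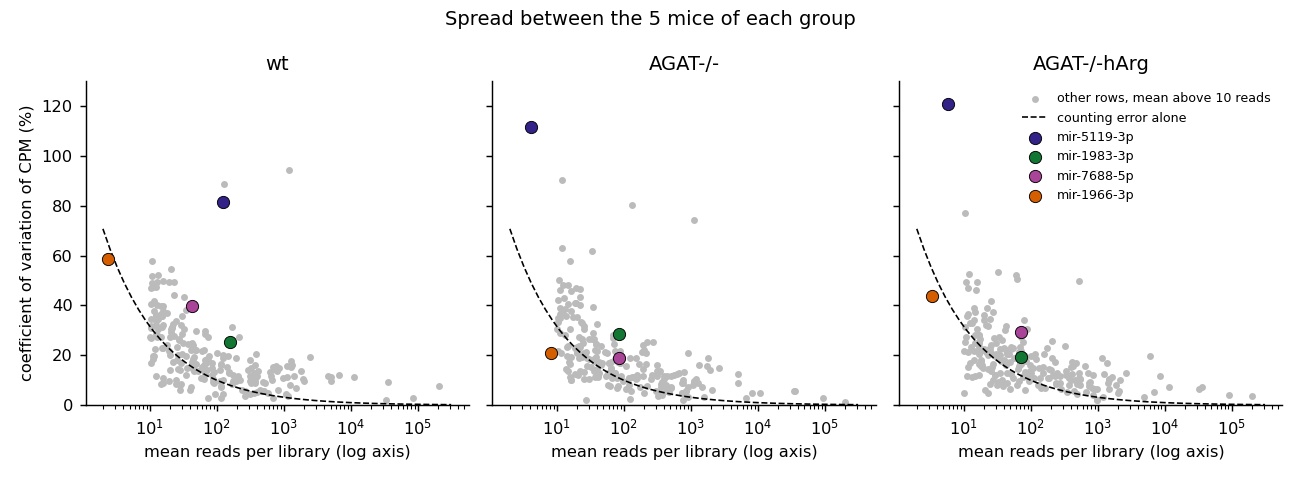
Coefficient of variation of CPM over the 5 mice of a group against mean reads per library (log axis), for other rows with a mean above 10 reads (grey) and the members at any read number (coloured), with the value expected from counting error alone as a dashed line. Mir-5119-3p in wt mice (81.4%) lies above the median of 16.7% (34.3% without mouse 5), its values in the other groups are 112% and 121%, and mir-1966-3p lies below the dashed line in each group.

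The mice that were high in mir-5119-3p were not the high ones of the other rows throughout. Wt mouse 5, with the most mir-5119-3p, also had the most mir-1983-3p, but 1 of the lowest levels of mir-1966-3p. AGAT-/- mouse 8 and AGAT-/-hArg mouse 11 were second and first of their groups in mir-1983-3p. AGAT-/-hArg mouse 14 was lowest of its group in mir-5119-3p, mir-1983-3p and mir-1966-3p. With mice 5, 8 and 11 left out together, a setting chosen after the data were seen, mir-5119-3p (-4.96, FDR = 3.13e-10, edgeR) and mir-1983-3p (-1.29, FDR = 6.77e-05, edgeR) were still called in AGAT-/-hArg against wt mice.

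Over the 15 libraries, log2 CPM of mir-5119-3p and mir-1983-3p had a Pearson correlation of 0.86, and of 0.53 after the group means were removed. The 15 points share the genotype groups and the lanes, and the values are given as a description. All members were chosen by a difference between groups, which favours rows that differ in the same way in the likeness given below. The other pairs lay between -0.63 and 0.48 over all libraries and between -0.13 and 0.33 within groups. Among 226 rows with a mean above 10 reads, mir-5119-3p was most like mir-1983-3p, mir-215-5p (0.83, within groups -0.09) and mir-21a-5p (0.74, within groups 0.06). Mir-1983-3p was also most like mir-215-5p (0.77, within groups 0.17) and mir-98-3p (0.75, within groups 0.60). The likeness to mir-215-5p thus lay in the group levels and not in the mice within a group.

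Mir-7688-5p was most like mir-298-5p (0.79, within groups 0.50), mir-210-5p (0.74, within groups 0.32) and mir-31-5p (0.72, within groups 0.25), over the same 15 libraries and 226 rows. For mir-1966-3p the closest of 227 rows were mir-542-5p (0.60, within groups 0.52), mir-3098-3p (0.57, within groups 0.24) and mir-339-3p (0.57, within groups 0.49). With between 1 and 11 reads per library, counting error alone gives mir-1966-3p a coefficient of variation of 46.3%.

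The animal numbers in the titles allowed neighbouring mice to be set side by side. AGAT-/- mouse 6 had an animal number between those of wt mice 1 and 2. Mouse 6 held 4 reads of mir-5119-3p, against 100 and 65 in these wt neighbours. For mir-1983-3p it held 61 reads against 182 and 98, for mir-7688-5p 66 against 30 and 32, and for mir-1966-3p 7 against 3 and 1. These 3 mice are among those that chose the rows, so their directions support nothing. AGAT-/-hArg mice 11, 12 and 13, next in number to wt mice 3, 4 and 5, held 18, 4 and 2 reads of mir-5119-3p against 122, 46 and 282. These wt mice also served for the choice of the rows. Animal numbers were higher in AGAT-/- mice on the whole, 4 of the 5 lying above all wt and all AGAT-/-hArg animals. The part of these numbers in the results was not tested beyond the fit with the number as a covariate. In that fit, mir-5119-3p (-5.03, FDR = 1.19e-05, edgeR) and mir-1983-3p (-1.33, FDR = 0.00110, edgeR) were still called in AGAT-/-hArg against wt mice. Mir-7688-5p went from 0.58 to 0.29 there (FDR = 0.887, edgeR) and from 0.92 to 0.59 in AGAT-/- against wt mice, and mir-1966-3p from 0.33 to 0.66 against wt mice (FDR = 0.887, edgeR). In AGAT-/-hArg against AGAT-/- mice, mir-5119-3p went from 0.36 to 0.0026 (FDR = 0.998, edgeR) and mir-7688-5p from -0.33 to -0.16 (FDR = 0.920, edgeR). Mir-1983-3p stood there at -0.30 (FDR = 0.868, edgeR) and mir-1966-3p at -1.29 (FDR = 0.289, edgeR).

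**Figure D5:**
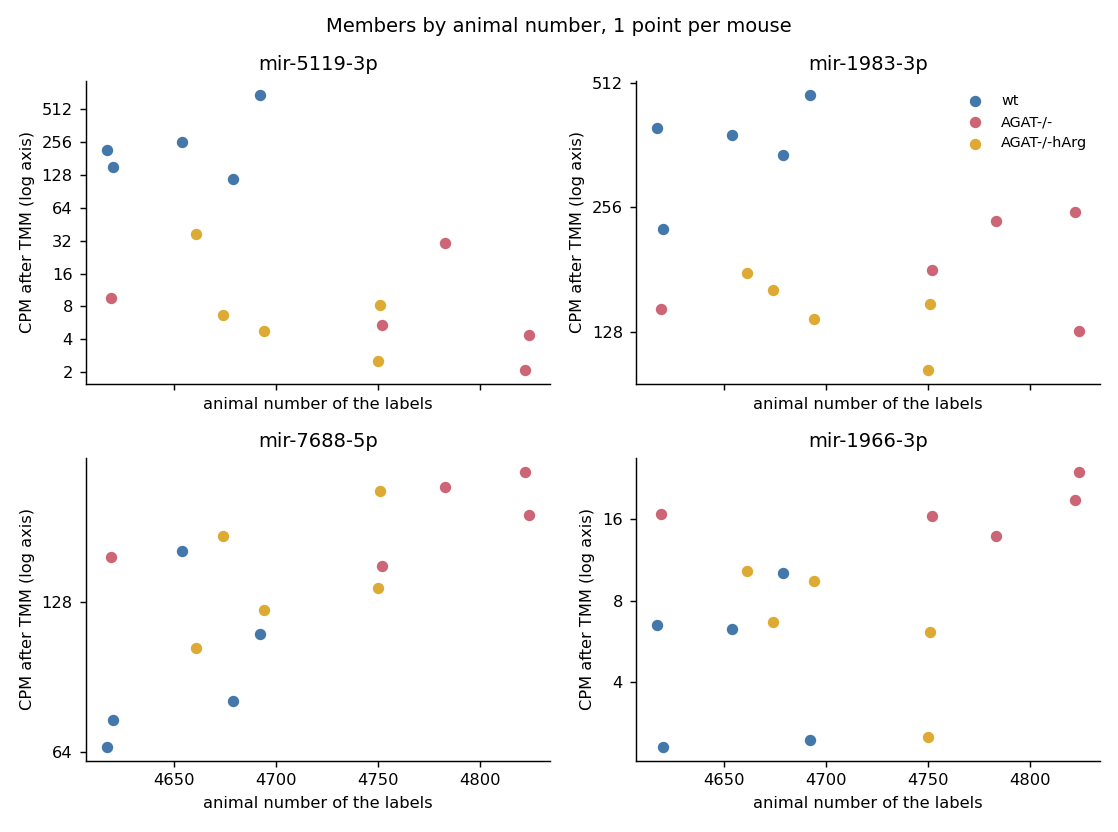
Level of each tested row (CPM after TMM, log axis) against the animal number of the labels, 1 point per mouse, coloured by group. At the lowest animal numbers, AGAT-/- mouse 6, with 9.52 CPM of mir-5119-3p, lies between wt mice 1 and 2 at 218 and 150 CPM.

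Rows of the same kind were set beside the members. The numbering blocks of the 4 precursors in the miRNA catalogue hold 210 further rows, 124 of them with reads. Of these, 50 were tested in AGAT-/-hArg against wt mice and 53 against AGAT-/- mice, and none passed the FDR in edgeR in either direction, where 2.99% and 0.69% of all rows did; whether these shares differ was not tested. Their median log2 fold changes were -0.14 and -0.11, against 0.02 over all rows in both comparisons. Over the 15 libraries the tested rows of these blocks held between 14 and 3252 reads. Most held fewer than mir-5119-3p (665) and mir-1983-3p (1570), and a change is harder to call in a row of few reads.

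Mir-1983 was also set beside the other precursors that overlap a short non-coding RNA gene in RefSeq, which were mir-1291, mir-664, mir-3084-2 and mir-5121 with snoRNA genes, mir-1843a, mir-1843b and mir-3069 with guide RNA genes of Cajal bodies, and mir-713 with a further RNA. With mir-1983 they made up 18 rows, 13 of them with reads. In AGAT-/-hArg against wt mice 12 rows were tested and mir-1983-3p alone was called, with a median log2 fold change of -0.16, and against AGAT-/- mice 11 were tested, none called, with a median of -0.01. The most abundant of them, mir-1843a-5p, was at 2624 ± 410 CPM in wt, 2503 ± 237 in AGAT-/- and 2480 ± 85.4 in AGAT-/-hArg mice (SD, n = 5). It had log2 fold changes of -0.09 (FDR = 0.809, edgeR) and -0.01 (FDR = 0.970, edgeR) in AGAT-/-hArg against wt and against AGAT-/- mice. The lowest value of the list against wt mice was that of mir-3069-5p, at -1.55 (standard error 0.79, FDR = 0.446, edgeR), a row with 19 reads in all.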

How the data were processed

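The authors sequenced small RNA of LV tissue (TruSeq small RNA kits, Illumina sequencer), assigned reads to murine miRBase entries in CLC Genomics Workbench and deposited counts, whole numbers of reads per mature miRNA with no normalization. The miRBase release, the mismatches allowed and the handling of reads that match several entries are not given in the sources used here, and near-identical entries or a tRNA could share reads with a row. The submitters' processing notes name GRCm 38. Samples were grouped by their labels, and all 15 columns were used, each from a separate mouse, so p-values measure the spread between mice.

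Counts were compared with edgeR 4.0.16 (R 4.3.3; TMM, glmQLFit, glmQLFTest) in rows whose sum over the 10 libraries exceeded 10 reads, with Benjamini-Hochberg adjustment over all rows tested. Standard errors were derived from the log2 fold change and its F statistic, and 95% intervals from t quantiles. CPM follow TMM over 15 libraries, and log2 CPM use a prior count of 1. Exact permutation tests, run in Python 3.11.15 with scipy 1.17.1, cover all 252 ways to split 10 mice. The fits were tested on simulated data. Alternatives were DESeq2 1.42.0, limma-voom (limma 3.58.1), other scalings, filters, a covariate, a stricter FDR and each mouse left out. The named rows are all rows of the 4 precursors, the 3 rows most like each of them, the rows of the comparison lists past the FDR and 2 examples of these lists and mir-499-5p, named after their values were seen. The members and the lists were chosen with earlier results of these data known. MiRNA sequences and positions are those of RefSeq (GRCm38.p6), which matched 698 of 918 precursors, with genes from GENCODE M21 and RefSeq. Overlap was counted regardless of strand, and folding energies came from RNAfold 2.7.2.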

Additional observations from a re-analysis of the deposited data

Results flagged for a closer look

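Of 12 sets of 5 mice examined (4 rows in 3 groups), 3 held a mouse far from the others by Dixon's ratio of the gap to the nearest mouse over the range, where chance gives about 1 in 20. All were the highest mice of their groups in mir-5119-3p. Wt mouse 5, at 692 CPM (282 reads) with the next mouse at 256 CPM, had a ratio of 0.757. AGAT-/- mouse 8, at 30.6 CPM (11 reads) with the next at 9.52 CPM, had a ratio of 0.740. AGAT-/-hArg mouse 11, at 37.2 CPM (18 reads) with the next at 8.19 CPM, had a ratio of 0.836. On log2 CPM, a scale added after the data were seen, the ratios were 0.559, 0.506 and 0.628, all under the critical value of 0.71, so the 3 mice stood apart on the linear scale only.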

How the results depend on the processing

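In AGAT-/-hArg against wt mice, mir-5119-3p passed the FDR in each of the 10 fits that left out a mouse (log2 fold change -5.57 to -3.94) and in the 10 other fits that could test it, and mir-1983-3p in 10 (-1.45 to -1.22) and 11. Mir-7688-5p passed without wt mouse 3 and with at least 1 read as the filter (0.61, FDR = 0.0278, edgeR), and mir-1966-3p in none. The members called were between 2 and 3 with each mouse left out, and 1 where every library had to hold more than 10 reads, which left 2 members to test. Calls over all rows numbered 28 with at least 1 read as the filter, 10 with the animal number as covariate, 9 at an FDR of at most 0.01, and 10 to 20 when a mouse was left out (11 without wt mouse 5 and 10 without AGAT-/-hArg mouse 15). The log2 fold change of mir-1966-3p was -0.00084 without mice 5, 8 and 11.

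In AGAT-/-hArg against AGAT-/- mice no member passed in any edgeR, DESeq2 or limma fit, with between 3 and 6 calls over all rows when each mouse was left out, 8 with at least 1 read as the filter and 2 with more than 10 reads in every library. Mir-5119-3p turned to -0.69 without mouse 11, and its other values lay up to 1.16. In AGAT-/- against wt mice mir-5119-3p moved to -6.11 with the animal number as covariate. The difference in 5p share of mir-7688 ranged between -0.38 and 0.24 percentage points against AGAT-/- and between -0.38 and 0.43 against wt mice with each mouse left out, and turned sign in several (0.238 and -0.0369, -0.377). The cause of these shifts was not tested.

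No paired analysis was possible because the mice are numbered 1 to 15 and no number occurs in more than 1 group. At 3 reads per 5.00 to 8.35 CPM, depth limits mir-1966-3p and, outside wt mice, mir-5119-3p, which is limited by the spread between mice as well.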
